A study of Poecilia reticulata with 6 samples.

Results

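The genes of the cytosolic ribosomal proteins in the intestine of the guppy (Poecilia reticulata) were followed across 3 salinities. A gene belonged to the family when its symbol, in lower or upper case, read rpl, rps or rplp followed by a number and at most a short suffix, and 51 of the 10389 genes in the table met this rule. Of these, 32 were named for the large subunit (rpl), 16 for the small subunit (rps) and 3 for the stalk of the large subunit (rplp1, rplp2 and rplp2l). The rule read symbols only and used no measured value. The RefSeq annotation of the guppy (assembly Guppy_female_1.0+MT) holds 71 symbols of the same form, of which 47 had a gene in the table and 24, among them rplp0, rpl10 and rps6, were not analysed here.

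A ribosome reads messenger RNA in its small subunit and joins amino acids in its large subunit, and each subunit is built from ribosomal RNA and one copy of most of its proteins. The stalk proteins form a flexible arm that recruits the elongation factors. In mammals, messengers of ribosomal proteins start with a run of pyrimidines, the terminal oligopyrimidine (TOP) motif, through which the kinase mTOR sets how much they are translated, so their RNA level is not their protein output. In the intestine, whose epithelium is renewed continuously from dividing cells, these messengers are among the most abundant.

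The intestine of adult wild-type guppies was sequenced at 0‰, 18‰ and 35‰ salt, with 2 libraries per salinity. The fish were kept at 28 °C, and 3‰ salt was added every 2 days until 35‰ was reached over 24 days, so that salinity and length of exposure cannot be told apart. The labels call the libraries replicates but do not give the fish or tanks behind each, and p-values therefore measure only the spread between these libraries, which may be technical. Sex and strain of the fish were not given in the sources used here. Levels are given as TPM, a transcript abundance scaled for transcript length and library size, so that genes can be compared with each other. Read depth per library is unknown. Summed over the table, TPM came to 419412 and 427838 at 0‰, 446532 and 459528 at 18‰, and 481864 and 481529 at 35‰. This sum thus rose with salinity.

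The intestinal markers in the table were above 0 in all 6 libraries, with a summed TPM between 4485 and 8613. They were 10 genes that matched a list of 21 symbols, several of them named slc5a1, and included anpepb, a brush border peptidase. Markers of other tissues were also present and differed between libraries. Those of the liver (5 of 18 on the list, of which ambp was listed at 0 in 3 libraries) summed to 1621 TPM in 0‰ replicate 2 and to between 3.70 and 37.7 in the other libraries. Those of the exocrine pancreas (4 of 19) summed to between 2824 and 11114 TPM at 0‰ and 18‰ and to 10.3 and 94.0 at 35‰. Those of leukocytes (4 of 18) summed to 500 TPM in 0‰ replicate 1 and to between 123 and 172 elsewhere.

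The ribosomal protein genes were among the most abundant genes of the intestine. They made up 30 of the 50 genes and 38 of the 100 genes with the highest mean TPM. In total, 36 had a mean of at least 1000 TPM (23 of the large subunit, 12 of the small subunit and rplp1). Another 11 lay between 100 and 1000 TPM, among them RPL5 and rpl11, whose proteins join the large subunit together with 5S ribosomal RNA. RPS27 and rplp2 had means above 0 and under 100 TPM. The remaining members, rps28 and rplp2l, were listed at 0 in all 6 libraries.

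The 10 members with the highest mean TPM were rps15, rpl13a, RPS20, rpl6, rpl30, rpl35, rpl27, rpl32, rps27a and rpl23. Rps15 (ENSPREG00000008866), a protein of the small subunit head near the decoding site, was at 4503 and 3111 TPM at 0‰, 4080 and 4780 TPM at 18‰, and 4443 and 5696 TPM at 35‰. Its means were 3807 ± 984, 4430 ± 495 and 5070 ± 886 TPM (SD, n = 2 each), and the libraries of the 3 salinities overlapped. Rps27a, which is made as a fusion with ubiquitin, ranged from 2892 TPM in 0‰ replicate 2 to 4013 TPM in 35‰ replicate 2. Rpl6 ranged from 3275 to 5231 TPM between the same libraries.

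**Figure D1:**
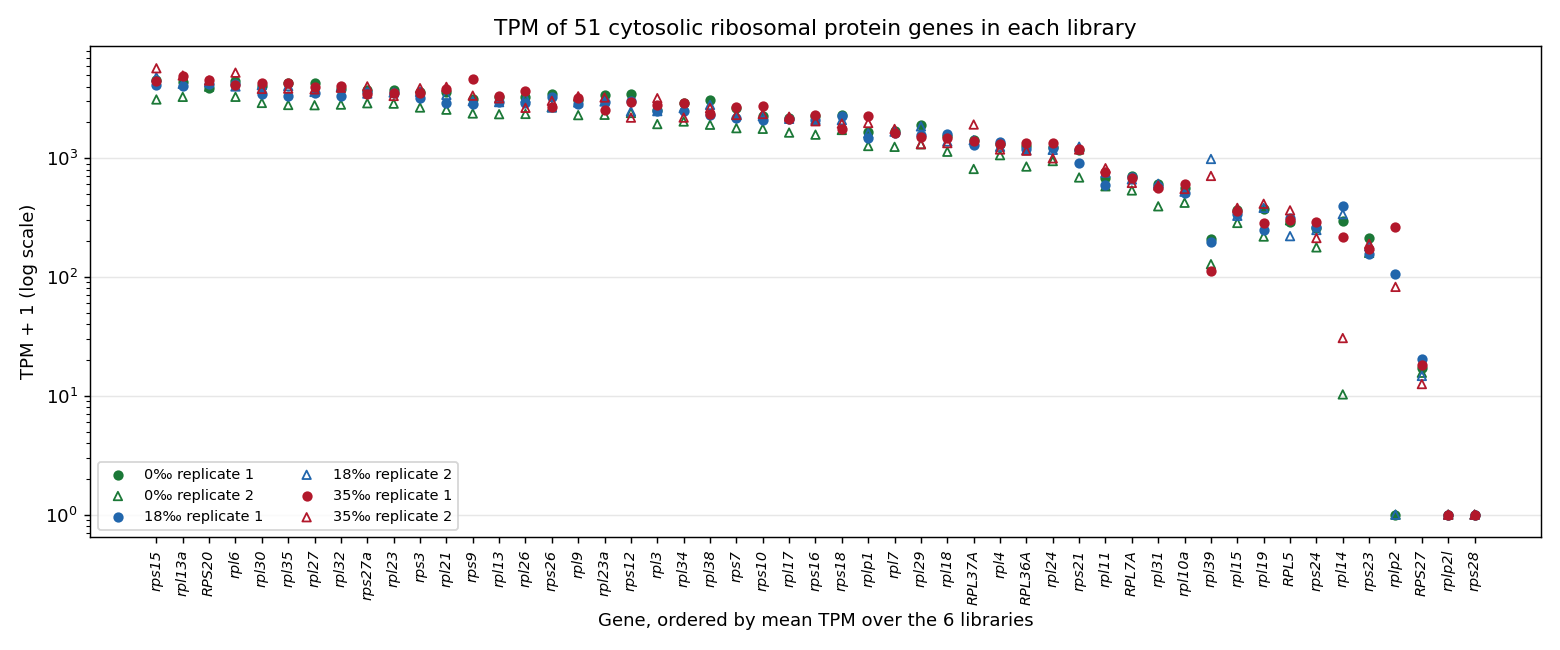
TPM plus 1 (logarithmic axis) of the 51 ribosomal protein genes in each of the 6 libraries, ordered by mean TPM, with one point per library coloured by salinity. Most genes lie above 1000 TPM, rpl14 and rpl39 spread widely between libraries, and rps28 and rplp2l are listed at 0 throughout.

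Values listed at 0 were few in the family and fell on 3 genes. Each library listed 2 or 3 of the 51 members at 0, compared with 1006 to 1275 of all 10389 genes (9.68% to 12.3%). The stalk gene rplp2 (ENSPREG00000011980) was listed at 0 in both 0‰ libraries, at 106 and 0 TPM at 18‰, and at 262 and 81.5 TPM at 35‰. Its partner in the stalk, rplp1 (ENSPREG00000011579), was between 1262 and 2250 TPM in the same libraries. Proteins P1 and P2 pair with each other in yeast and mammals, and every cell needs ribosomes, so a listed 0 for rplp2, rplp2l or rps28 may be a failed estimate and is not read as absence of the RNA. Rps28 is a protein of the small subunit, and rplp2l is named as a relative of rplp2, with which it may share reads.

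Low levels also occurred among members that were above 0 in every library. RPL5 was listed between 219 and 362 TPM, and rpl5b, a gene of similar symbol outside the naming rule, between 1874 and 2861 TPM. Reads of the RPL5 and rpl5b genes could be split by the quantification, and their separate levels are uncertain. RPS27 ranged from 11.6 to 19.4 TPM, below the other small subunit members above 0, of which the next lowest, rps23, was between 156 and 213 TPM.

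The clearest shared feature of the family was one library. In 0‰ replicate 2, 47 of the 48 members above 0 in all libraries were below their own mean over the libraries, and 41 had their lowest value there. Over all 7897 genes tested, 13.1% had their lowest value in that library. The median deviation of the 49 members tested from their own mean was -0.35 on the log2 scale in 0‰ replicate 2. It was 0.12 in 0‰ replicate 1, -0.01 and 0.04 at 18‰, and 0.13 and 0.08 at 35‰. The corresponding medians over all genes lay between -0.12 and 0.06.

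Both subunits took part in this shift. The median deviation in 0‰ replicate 2 was -0.35 for the large subunit and -0.34 for the small subunit, and in the other 5 libraries the median lay between -0.01 and 0.12 for either subunit. The summed TPM of the members came to 109296 for 0‰ replicate 1 but 79509 for replicate 2, to 98869 and 104062 for 18‰, and to 109657 and 108459 for 35‰. The family thereby held 26.1% and 18.6% of the table's TPM in the 0‰ libraries, 22.1% and 22.6% in those of 18‰, and 22.8% and 22.5% in those of 35‰. The 0‰ libraries thus held both the highest and the lowest share. As these are bulk samples, fewer cells of a type and less of these RNAs per cell cannot be told apart.

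The members that departed from this order were RPS20 (lowest in 0‰ replicate 1), rps23 (18‰ replicate 1), RPL5 and rps26 (18‰ replicate 2), rpl39 (35‰ replicate 1), and rps12 and RPS27 (35‰ replicate 2). Each of the other 5 libraries exceeded 0‰ replicate 2 in 45 to 47 of the 48 members, with median ratios from 1.25 to 1.41. Over all genes the corresponding shares were 40.5% to 57.1%. In contrast, 0‰ replicate 1 was above 35‰ replicate 1 in 26 of 48 members and above 35‰ replicate 2 also in 26. It was above the 18‰ libraries in 41 and 37 of 48. Over all genes these shares were 56.1% and 42.4% for 35‰ and 40.6% and 43.5% for 18‰. The median absolute difference between the libraries of a salinity was 0.44 for the members at 0‰, 0.11 at 18‰ and 0.16 at 35‰ on the log2 scale, against 0.32, 0.21 and 0.35 for all genes. For the 455 other genes with a mean of at least 100 TPM it was 0.38, 0.19 and 0.30.

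Markers of liver and erythrocytes were highest in the library where the members were lowest. All 3 liver markers that were tested had their highest value in 0‰ replicate 2, led by serpina1l, a secreted protease inhibitor, at 1178 TPM against 0.14 to 16.7 TPM in the others. The 3 erythrocyte markers in the table were also all highest there, with a summed TPM of 22.3 against 4.74 to 15.1. The part of these markers in the lower ribosomal protein values was not tested.

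**Figure D2:**
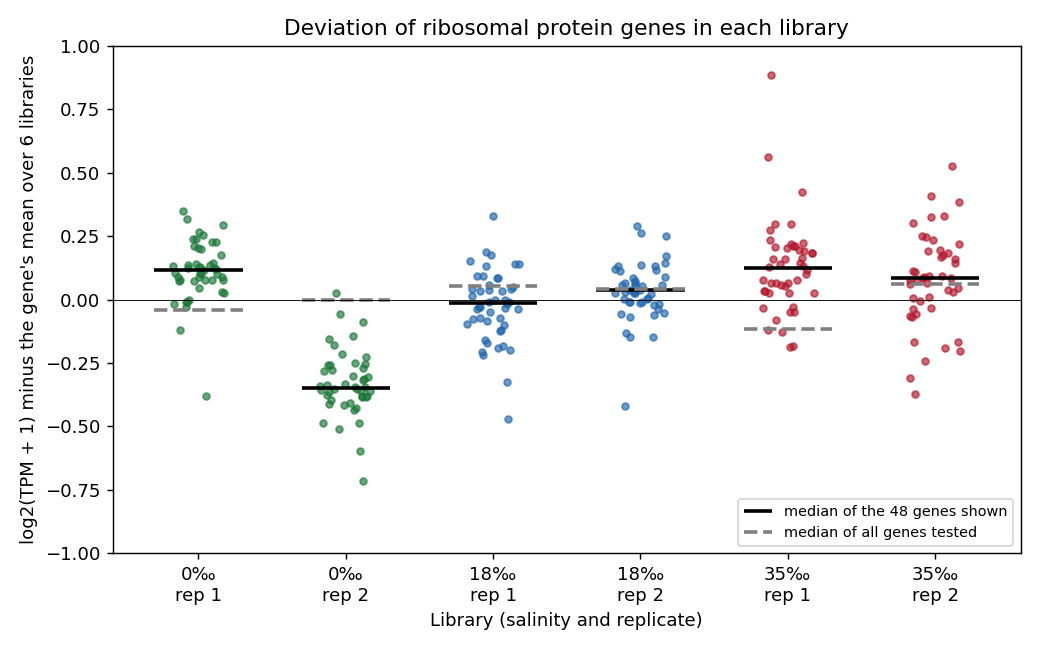
Log2 deviation of each of the 48 ribosomal protein genes above 0 in every library from its own mean over the 6 libraries (vertical axis), by library; the black line is the median of the 48 genes and the dashed grey line that of all 7897 genes tested. In 0‰ replicate 2, 47 of the 48 genes sit below 0 (median -0.35), and the medians of the other libraries lie higher. In all, 9 points of 2 genes (rpl14 and rpl39) lie beyond the axis limit of 1.

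No ribosomal protein gene passed the test in any comparison of salinities. A gene was called by limma on log2(TPM + 1) at a Benjamini-Hochberg adjusted p under 0.05 and a fold change above 1.5, and 49 members were tested, as rps28 and rplp2l failed the filter of 1 TPM in 2 libraries. Over all genes limma called 1 gene (0.0127%) in 18‰ versus 0‰, which was higher at 18‰. It called 15 genes (0.19%) in 35‰ versus 0‰, 1 higher (0.0127%) and 14 lower (0.177%), and 25 genes (0.317%) in 35‰ versus 18‰, 3 higher (0.038%) and 22 lower (0.279%). At an unadjusted p under 0.05, limma gave 0, 1 and 0 members, compared with 5.93%, 11.3% and 12.5% of all genes. The 1 member was rplp2. Fold changes below are on the log2(TPM + 1) scale.

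The summed TPM of the family was 94402 ± 21062 at 0‰, 101465 ± 3672 at 18‰ and 109058 ± 848 at 35‰ (SD, n = 2 each). The sum at 35‰ was 1.16 times that at 0‰ (exact two-sided permutation test, p = 0.667), and the sum at 18‰ was 1.07 times that at 0‰ (exact permutation test, p = 1). The sum at 35‰ was 1.07 times that at 18‰, without overlap of the libraries (exact permutation test, p = 0.33, the smallest that 2 against 2 libraries allow). The TPM sum of the whole table also rose with salinity, without overlap of the libraries. As shares of the table, the libraries of 18‰ and 35‰ overlapped, and those of 0‰ held both the highest and the lowest share.

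Most members were slightly higher at 18‰ than at 0‰, by an amount that rested on 0‰ replicate 2. The log2 fold change was above 0 in 45 of 49 members, compared with 58.9% of all genes, with a median of 0.12 against 0.06 for all genes, and in 32 and 35 of 49 after rescaling each library to the same TPM sum and after median-of-ratios scaling. The libraries did not overlap in 2 members, RPS20 and rpl14, both higher at 18‰ (24.7% of all genes), and in no member in the lower direction (12.8% of all genes). Without 0‰ replicate 2 the direction turned, with 5 of 49 members higher and a median of -0.09, while 58.4% of all genes were higher. Without 0‰ replicate 1 it was 48 of 49 members (55.9% of all genes), with a median of 0.34.

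In 35‰ versus 0‰, 43 of 49 members were higher (49% of all genes), with a median log2 fold change of 0.22 against -0.01 for all genes, and 31 of 49 were higher after rescaling each library to the same sum. The libraries did not overlap in 13 members, all higher at 35‰ and with rplp2 among them (18.9% of all genes), and in none in the lower direction (20% of all genes). The smallest adjusted p over the members was 0.252 (limma), that of rplp2. Without 0‰ replicate 2, 22 of 49 members were higher (50.8% of all genes) and the median was -0.02. Without 0‰ replicate 1, 48 of 49 were higher (46.4% of all genes) and the median was 0.47. The large subunit members were higher in 31 of 32 (median 0.23) and the small subunit members in 10 of 15 (median 0.20), and the difference between the subunits was not tested. The pancreatic markers, lower at 35‰ than in the other libraries, move with this comparison and the next, and their part in the results was not tested.

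The comparison of 35‰ with 18‰ does not use the 0‰ libraries in its means. Here 32 of 49 members were higher at 35‰ (43.2% of all genes), with a median of 0.10 against -0.07 for all genes, and when the TPM of each library was rescaled to the same sum the count was 25 of 49 and the median 0.01, against 43 of 49 and 0.18 with median-of-ratios scaling. The libraries did not overlap in 14 members higher at 35‰ (18.7% of all genes) and in 3 members lower at 35‰, which were rpl14, rpl29 and rps18 (29% of all genes). Rescaling moved the median of all genes as well, to -0.18 in 35‰ versus 0‰ and -0.16 in 35‰ versus 18‰. Relative to that median the members stood 0.23 higher in 35‰ versus 0‰ and 0.17 higher in 35‰ versus 18‰ as deposited, and 0.22 and 0.17 higher after rescaling. This distance depended on single libraries. In 35‰ versus 0‰ it was 0.51 without 0‰ replicate 1 and -0.03 without 0‰ replicate 2. Without 35‰ replicate 1 it was 0.12 against 0‰ and 0.08 against 18‰, and without 35‰ replicate 2 it was 0.35 and 0.26. The 3 comparisons share libraries and are not independent of each other.

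**Figure D3:**
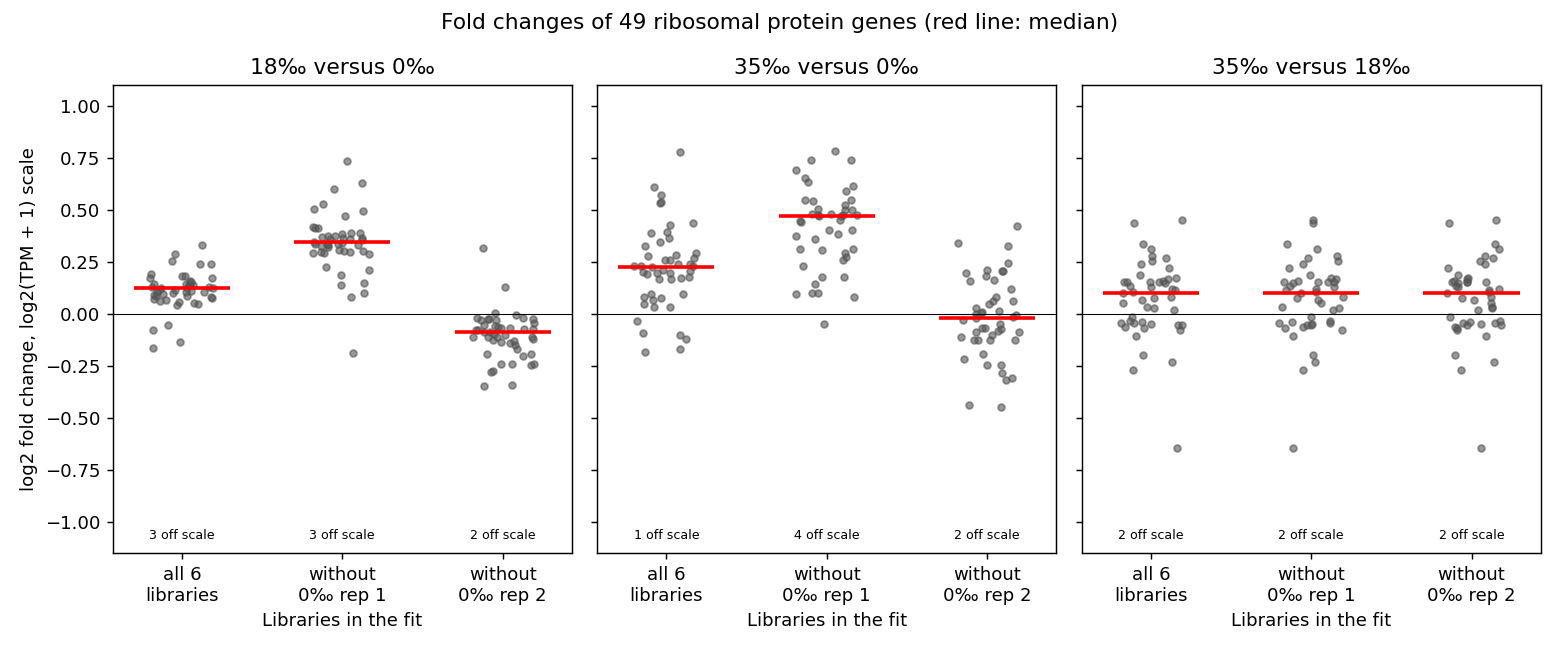
Log2 fold change of the 49 tested ribosomal protein genes (vertical axis) in the 3 comparisons of salinities, fitted with all libraries, without 0‰ replicate 1 and without 0‰ replicate 2, with the median in red. The median of 35‰ versus 0‰ moves from 0.22 to 0.47 without replicate 1 and to -0.02 without replicate 2, and that of 18‰ versus 0‰ from 0.12 to 0.34 and -0.09.

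RPS20 was the steadiest member and, on the deposited scale, the only one whose libraries ranked without overlap in all 3 comparisons. The share of all genes without overlap in all 3 was not computed, so this ranking cannot be set against all genes. RPS20 (ENSPREG00000009080), a protein of the small subunit head, was at 3901 and 3987 TPM at 0‰, 4210 and 4325 TPM at 18‰, and 4536 and 4490 TPM at 35‰. Its means were 3944 ± 60.6, 4268 ± 81.6 and 4513 ± 32.8 TPM (SD, n = 2 each), with the libraries in the order of salinity. The TPM sums of the whole table followed the same order of salinities. Relative to those sums, the RPS20 values at 18‰ and 35‰ overlapped. In TPM, the highest library of RPS20 was 1.16 times its lowest, the smallest such ratio of the 48 members. The log2 fold change of 35‰ versus 0‰ was 0.19 (SE 0.21, limma adjusted p = 0.758), so that this order did not pass the test. RPS20 also did not share the low value of 0‰ replicate 2, where it stood 0.26 above its usual distance to the median ribosomal protein gene on the log2 scale, and scaled to that gene its fold change of 35‰ versus 0‰ was -0.02.

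The stalk gene rplp1 and the small subunit gene rps9 had the largest positive fold changes at 35‰ among members without overlap and without a 0. Rplp1 was at 1664 and 1262 TPM at 0‰, 1469 and 1615 TPM at 18‰, and 2250 and 1972 TPM at 35‰. Both 35‰ libraries lay above the other 4, with log2 fold changes of 0.54 against 0‰ (SE 0.24, limma adjusted p = 0.455) and 0.45 against 18‰ (SE 0.24, limma adjusted p = 0.476). Rps9 (ENSPREG00000007924), which binds ribosomal RNA early in the assembly of the small subunit, was at 3155 and 2371 TPM at 0‰, 2828 and 3012 TPM at 18‰, and 4665 and 3351 TPM at 35‰. Its fold changes were 0.53 against 0‰ (SE 0.27, limma adjusted p = 0.495) and 0.44 against 18‰ (SE 0.27, limma adjusted p = 0.535), and 35‰ replicate 1 carried most of the difference. Relative to the TPM sum of the table, rps9 in 35‰ replicate 2 lay below 0‰ replicate 1.

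On the deposited scale, large subunit genes with both 35‰ libraries above the other 4 were rpl13a, rpl3, rpl21, rpl9 and rpl11. Relative to the TPM sum of the table, 0‰ replicate 1 lay above 35‰ replicate 1 in each of these genes. The share of all genes with both 35‰ libraries above the other 4 was not computed, so these members cannot be set against it. Rpl13a (ENSPREG00000020079), whose human protein can leave the ribosome to silence inflammatory messengers, was at 4340 and 3272 TPM at 0‰, 4042 and 4209 TPM at 18‰, and 4907 and 4947 TPM at 35‰. The 35‰ libraries lay above the other 4 and differed from each other by little, with a log2 fold change of 0.39 against 0‰ (limma adjusted p = 0.567). Rpl3 (ENSPREG00000011570), a large protein that reaches towards the catalytic centre, was at 2530 and 1931 TPM at 0‰, 2495 and 2482 TPM at 18‰, and 2810 and 3190 TPM at 35‰. Its log2 fold change was 0.44 against 0‰ (limma adjusted p = 0.518). Rpl21 was at 3592 and 2553 TPM at 0‰, 2908 and 3400 TPM at 18‰, and 3837 and 3972 TPM at 35‰, with a log2 fold change of 0.31 against 18‰ (limma adjusted p = 0.641). The small subunit gene rps21 was at 1175 and 686 TPM at 0‰ and at 1180 TPM in both 35‰ libraries, so that 1 of the 0‰ libraries lay just below both.

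Rpl29 and rps18 went the other way between 18‰ and 35‰. Rpl29 (ENSPREG00000007066), a small protein of the large subunit, was at 1902 and 1306 TPM at 0‰, 1549 and 1846 TPM at 18‰, and 1501 and 1310 TPM at 35‰. Rps18 (ENSPREG00000021851), which contacts the large subunit from the small subunit head, was at 2290 and 1723 TPM at 0‰, 2253 and 2088 TPM at 18‰, and 1752 and 1950 TPM at 35‰. At 35‰ both genes were below both 18‰ libraries and within the range of the 0‰ libraries. The log2 fold changes against 18‰ were -0.27 for rpl29 (limma adjusted p = 0.707) and -0.23 for rps18 (limma adjusted p = 0.723).

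Among the 48 members above 0 in every library, rpl14 and rpl39 varied most, also between libraries of one salinity. Rpl14 (ENSPREG00000017833), a protein on the surface of the large subunit, was at 293 and 9.28 TPM at 0‰, 397 and 336 TPM at 18‰, and 217 and 29.6 TPM at 35‰. The 2 low libraries were both labelled replicate 2 and belonged to different salinities, and the highest value was 42.8 times the lowest. Its log2 fold changes of 2.74 for 18‰ versus 0‰ (SE 1.51, limma adjusted p = 0.942) and -2.16 for 35‰ versus 18‰ (SE 1.51, limma adjusted p = 0.591) did not pass the test. Rpl39 (ENSPREG00000012246), a very short protein that lines the exit tunnel, was at 208 and 127 TPM at 0‰, 195 and 982 TPM at 18‰, and 111 and 706 TPM at 35‰. Its high libraries were 18‰ and 35‰ replicate 2, and its highest value was 8.88 times its lowest. Among the other 46 members the ratio was at most 2.37, that of RPL37A.

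**Figure D4:**
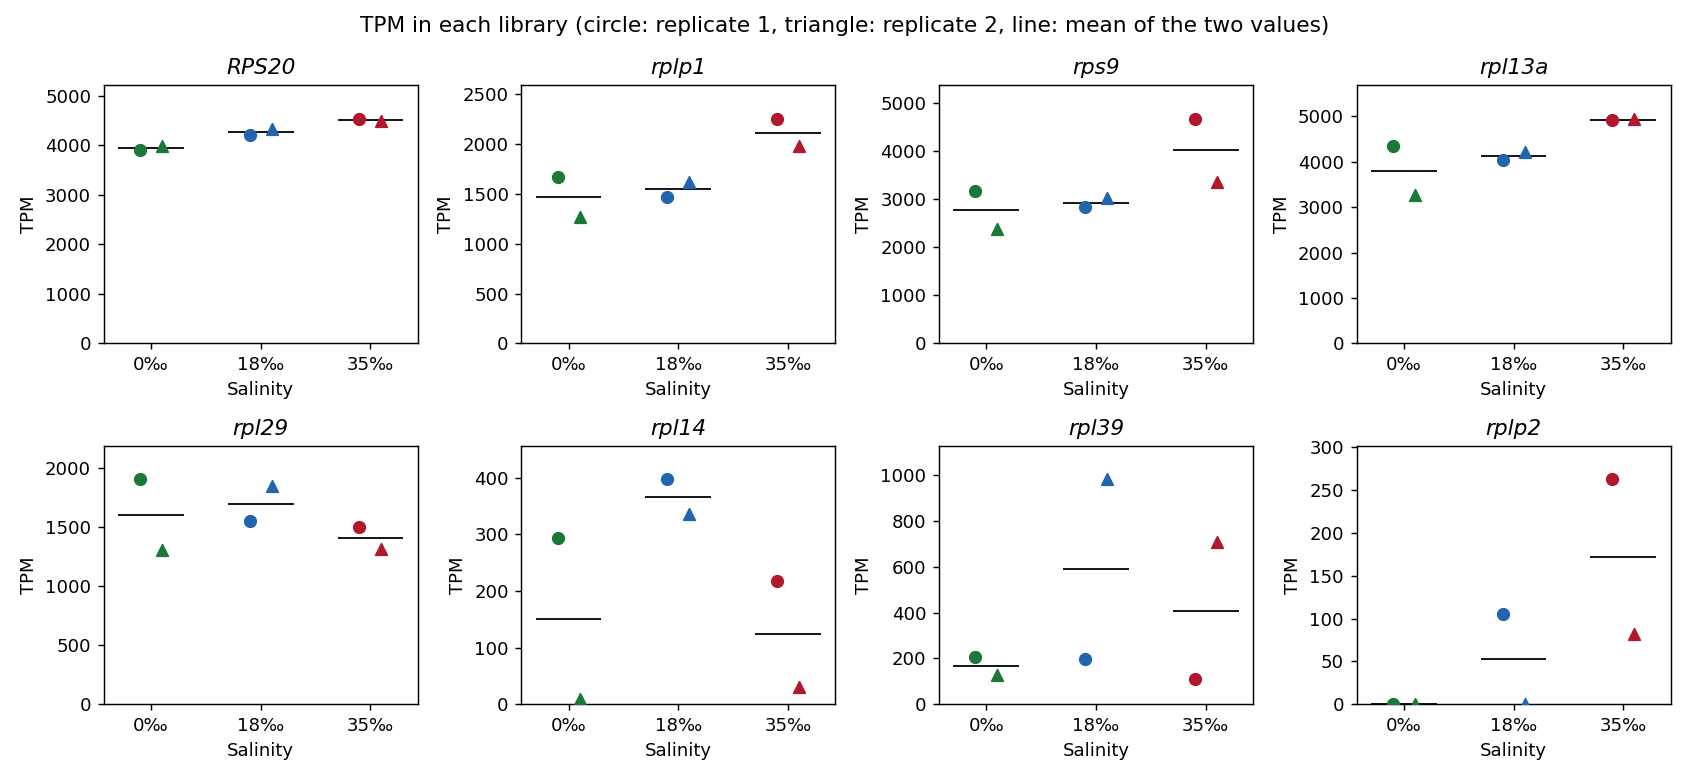
TPM of RPS20, rplp1, rps9, rpl13a, rpl29, rpl14, rpl39 and rplp2 in the 6 libraries, one panel per gene, with circles for replicate 1, triangles for replicate 2 and a line at the mean of each salinity. RPS20 lies between 3901 and 4536 TPM without overlap of the salinities, whereas rpl14 and rpl39 differ between libraries of one salinity and rplp2 is listed at 0 in 3 libraries.

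The members varied less over the libraries than other genes, and most of their variation was shared. Their median SD of log2(TPM + 1) over the 6 libraries was 0.21, against 0.32 for all genes and 0.32 for the 455 other genes with a mean of at least 100 TPM, and it was 0.13 after each library was centred on its median ribosomal protein gene. Relative to that gene, a setting added after the data were seen, 18‰ and 0‰ did not overlap in 5 members higher (11% of all genes) and 5 lower (17.3%). For 35‰ versus 0‰ these were 9 higher (6.67%) and 9 lower (28.7%), and for 35‰ versus 18‰ 8 higher (13.9%) and 7 lower (34.4%). This setting removes the family's median by construction. It left the median of all genes at -0.19 in 35‰ versus 0‰ and -0.15 in 35‰ versus 18‰. The counts of members and the shares of all genes are therefore not comparable on it. Rplp1, rps9, rpl3, rpl13a, rpl21 and rpl9 were among the higher in both comparisons with 35‰, and rpl29, rps18, rpl4, rpl23 and RPL7A among the lower in both. No member passed the test on this scale either (log2 fold change of rplp1 in 35‰ versus 0‰ 0.32, limma adjusted p = 0.644, and of rpl29 -0.39, limma adjusted p = 0.576).

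**Figure D5:**
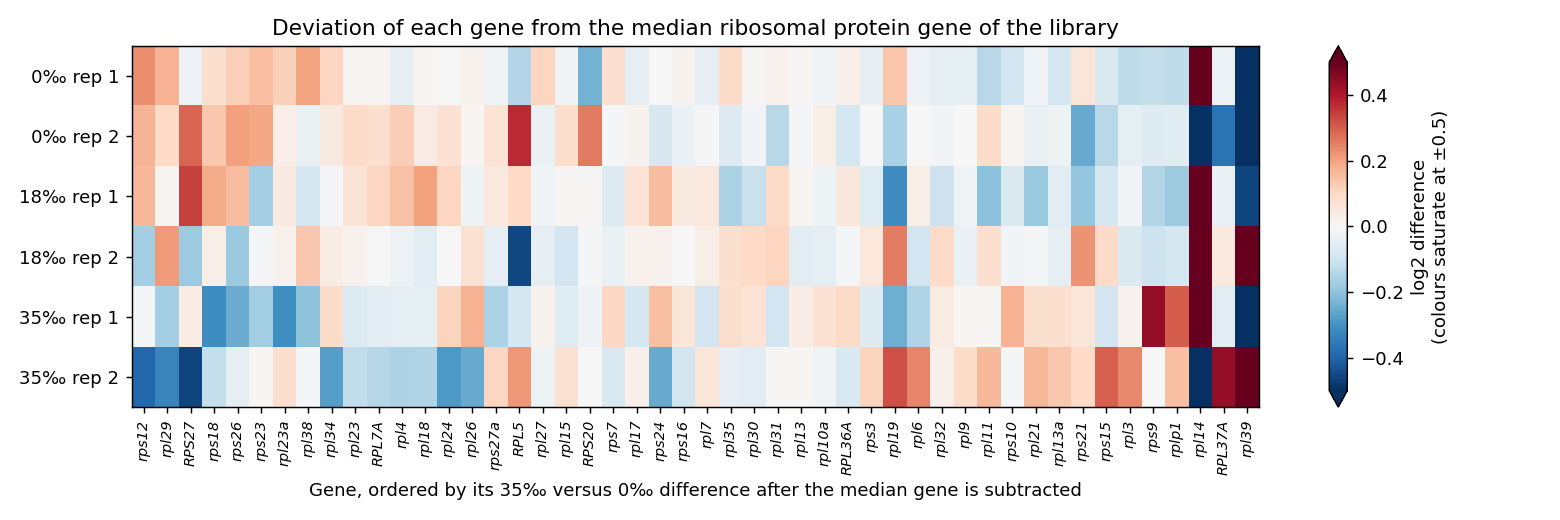
Heat map of the log2 deviation of each ribosomal protein gene from its own mean after each library was centred on its median ribosomal protein gene. Genes are columns and the 6 libraries are rows, and the colour saturates at 0.5 in either direction. Most genes stay near 0, rpl14 and rpl39 saturate, and rplp1 is higher and rpl29 lower in both 35‰ libraries.

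Other parts of the translation machinery were counted the same way, and no gene of these lists was called in any comparison on the deposited scale (limma). Of 54 mitochondrial ribosomal proteins, which serve the organelle's own ribosome, 38 were higher in 35‰ versus 0‰ (median 0.13) and 43 in 35‰ versus 18‰ (median 0.19), but 16 in 18‰ versus 0‰ (median -0.06). After rescaling to the same sum these medians were -0.05, 0.11 and -0.15, and those of all genes -0.18, -0.16 and -0.02. The libraries of 35‰ and 18‰ did not overlap in 25 mitochondrial members higher and 3 lower (18.7% and 29% of all genes). Without 35‰ replicate 2 the medians were 0.04 against 0‰ (all genes -0.10) and 0.11 against 18‰ (all genes -0.16). The list of elongation factor genes was read from symbols and also holds eef1e1 and 2 genes for methyltransferases of these factors. Of its 8 genes tested, all 8 were higher in 35‰ versus 18‰ (median 0.29) and 7 after rescaling. In 35‰ versus 0‰ 6 of the 8 were higher (median 0.22), and 4 after rescaling. Without 35‰ replicate 1 these medians were 0.11 against 18‰ (all genes 0.01) and 0.04 against 0‰ (all genes 0.08).

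Genes that build ribosomes were lower mainly in 35‰ replicate 1, where their median deviation was -0.29, against -0.02 in 35‰ replicate 2. Over all genes the median deviation was also lowest in 35‰ replicate 1, at -0.12, and was 0.06 in 35‰ replicate 2. Of 39 assembly factors and subunits of RNA polymerase I, 10 were higher and 29 lower in 35‰ versus 0‰ (median -0.16). In 35‰ versus 18‰, 9 were higher and 30 lower (median -0.18). Of all genes 49% and 43.2% were higher in these comparisons (medians -0.01 and -0.07). After rescaling to the same sum, 4 of the 39 were higher and 35 lower in each. Their medians were then -0.35 and -0.27, against -0.18 and -0.16 for all genes. Without 35‰ replicate 1, on the deposited scale, 21 of the 39 were higher against 0‰ (median 0.0059, all genes 0.08). Against 18‰ 17 were higher (median -0.11, all genes 0.01). In 0‰ replicate 2, where the ribosomal proteins were lowest, the median deviation of the 39 genes was 0.05. There it was -0.23 for the elongation factor list, -0.11 for the mitochondrial ribosomal proteins and -0.06 for the initiation factor list. For the cytosolic tRNA synthetases and the regulators of TOP messengers it was -0.01 and 0.03. Of 16 cytosolic tRNA synthetases, which charge transfer RNAs, 13 were lower in 35‰ versus 0‰ (median -0.21), and 8 without 35‰ replicate 1 (median 0.0081). The median was -0.08 without 0‰ replicate 1 and -0.33 without 0‰ replicate 2. After rescaling to the same sum, all 16 synthetases were lower in 35‰ versus 0‰ (median -0.40, against -0.18 for all genes). The list of 30 initiation factor genes was read from symbols and also holds the eif4ebp inhibitors and the kinases EIF2AK4 and eif2ak3. The eif4ebp genes are counted again among the regulators below, and eif6 is also among the assembly factors. Of the 30, 17 were higher in both comparisons with 0‰ (medians 0.04 and 0.02) and 11 in 35‰ versus 18‰ (median -0.06). The sign of these medians varied with the scaling and with the library left out. Of 9 regulators of TOP messengers, 5, 4 and 3 were higher in 18‰ versus 0‰, 35‰ versus 0‰ and 35‰ versus 18‰, and 4, 1 and 2 after rescaling. The lowest adjusted p among these regulators was 0.057 (limma, 35‰ versus 0‰), that of one of the genes named eif4ebp1 (ENSPREG00000006324), an inhibitor of translation initiation that mTOR switches off. It was at 4.35 and 5.83 TPM at 0‰ and was listed at 0 and 0.52 TPM at 35‰, so its values were low throughout. It was called when libraries were scaled to the median ribosomal protein gene (limma adjusted p = 0.0284). That scaling also gave more calls over all genes than the deposited scale. The other gene of the name, EIF4EBP1, was at 7.87 and 9.84 TPM at 0‰ and at 11.4 and 6.07 TPM at 35‰. Its log2 fold change was -0.06 (limma adjusted p = 0.957).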

How the data were processed

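Intestinal RNA of guppies at 0‰, 18‰ and 35‰ salt (2 libraries each) was sequenced as paired-end reads. According to the study's methods, the authors aligned reads with STAR and quantified transcripts with StringTie, and the deposited values are TPM per gene. Versions, genome build and annotation are not given in the sources used here. TPM keeps no read depth, so no counting interval is given. The authors tested differential expression with DESeq2. As TPM are not counts, limma 3.58.1 (R 4.3.3; eBayes with trend) was used here on log2(TPM + 1), for the 7897 of 10389 genes with at least 1 TPM in at least 2 libraries. All 6 libraries shared one estimate of the spread, p-values were adjusted within each comparison over all genes, and a call needed an adjusted p under 0.05 and a fold change above 1.5. The script was checked on simulated data. Summed TPM were compared with exact permutation tests. TPM of a whole transcriptome sum to the same value in every library, whereas the sums of the table differed, so it holds part of the transcriptome.

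Members and lists were chosen with earlier results of these data known. The genes named are the 10 with the highest mean TPM, those listed at 0 in some libraries, the stalk genes, and per comparison the 5 largest rises and falls among members whose libraries did not overlap and held no 0. Other genes (rps28, rpl39, RPS27, RPL5, RPL37A and those named by count) were named after their values were seen. Alternatives were other pseudocounts, filters and scalings, a replicate block, omission of each library, values of 0 set to missing, and a fit on 4 libraries. Ribosomal proteins outside the naming rule are not reported here as a group. No sequence or coordinate is shown, as no genome of the files' build was used here.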

Additional observations from a re-analysis of the deposited data

How the results depend on the processing

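With 2 libraries per salinity and no read depth, precision is limited, and exact tests cannot go below p = 0.33 (exact permutation test). Deviations of equally numbered libraries correlated at 0.06, -0.04 and 0.05 over genes. This cannot show whether such libraries were handled together, and the labels do not say. With the replicate block, limma called 0 members in each comparison (and 0, 16 and 25 genes in all). Of the values that answer a comparison, 162 stayed within 1.5 times or 1 SD under an alternative, 67 moved further and 5 reversed. These counts do not hold every change of sign on omission of a single library. On such omission the members' median fell as low as -0.087 in 18‰ versus 0‰ and -0.021 in 35‰ versus 0‰. The log2 ratio of summed TPM fell as low as -0.11 and -0.0031 in the same comparisons.

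In 18‰ versus 0‰, 1 gene was called. This was 0 with a pseudocount of 5, a mean TPM filter of 5, median-of-ratios scaling, the replicate block, zeros set to missing or only 4 libraries, 2 when scaled to the median ribosomal protein gene, and 0 to 11 when single libraries were left out (11 without 0‰ replicate 1). In 35‰ versus 0‰, the 15 genes became 1 without a filter, 24 with the mean TPM filter, 50 with ribosomal scaling, and 3 to 89 without single libraries (3 without 35‰ replicate 1, 28 without 35‰ replicate 2, 24 without 0‰ replicate 1 and 89 without 0‰ replicate 2). In 35‰ versus 18‰, the 25 genes became 4 without a filter, 47 with ribosomal scaling, 41 with only 4 libraries, and 3 to 45 without single libraries (3 without 35‰ replicate 1 and 45 without 35‰ replicate 2).

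The calls of members stayed at 0 except for rplp2. It was called in 35‰ versus 0‰ with only 4 libraries and without 18‰ replicate 1 or 2, and in 35‰ versus 18‰ without 18‰ replicate 1. With only 4 libraries or without 18‰ replicate 1, rplp2 passed the filter only through the 35‰ libraries. The values it was set against were in part or all listed at 0, which may be failed estimates. These calls are therefore not read as a rise of the RNA. With 0 values set to missing rplp2 could not be fitted against 0‰. Its fold depends on the pseudocount and is not given.

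Ribosomal scaling, which removes the family's median by construction, set the members' median to -0.0029 in 18‰ versus 0‰ and 0.0061 in 35‰ versus 0‰. Without single libraries the median ranged from -0.087 to 0.34 in 18‰ versus 0‰ and from -0.021 to 0.47 in 35‰ versus 0‰, and from 0.04 to 0.12 in 35‰ versus 18‰. The log2 ratio of summed TPM ranged from -0.11 to 0.35, from -0.0031 to 0.46 and from 0.07 to 0.14. Median-of-ratios scaling left 35, 43 and 43 of 49 members higher in 18‰ versus 0‰, 35‰ versus 0‰ and 35‰ versus 18‰, and rescaling to the same sum 32, 31 and 25.

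Members without overlap in 18‰ versus 0‰ (2 higher, 0 lower) became 1 and 1 with median-of-ratios scaling and 5 and 5 with ribosomal scaling, and 2 to 44 and 0 to 32 without single libraries (44 higher without 0‰ replicate 1, 32 lower without 0‰ replicate 2), where a lone library overlaps less easily. In 35‰ versus 0‰ (13 higher, 0 lower) they were 3 higher after rescaling and 9 lower with ribosomal scaling, and 13 to 46 and 0 to 16 without single libraries (46 higher without 0‰ replicate 1, 16 lower without 0‰ replicate 2). In 35‰ versus 18‰ (14 higher, 3 lower) they were 6 and 7 after rescaling, 22 higher with median-of-ratios scaling, 8 and 7 with ribosomal scaling, and 18 to 25 and 8 to 15 without single libraries. Shares of all genes without overlap were computed only with all libraries, on the deposited scale and with ribosomal scaling. The counts under the other settings therefore cannot be set against all genes and are not read as a feature of the family.

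Of the genes chosen per comparison, rplp1 and RPS20 reversed in 18‰ versus 0‰. The log2 fold change of rplp1 (0.09) was -0.0091 after rescaling, -0.039 with ribosomal scaling and from -0.11 (without 0‰ replicate 2) to 0.29 without single libraries, and that of RPS20 (0.11) was -0.013 with ribosomal scaling, under which RPS20 also reversed in 35‰ versus 0‰ (-0.024) and 35‰ versus 18‰ (-0.012).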
